A study of Mus musculus with 8 samples.

Results

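Gene expression in R1 mouse embryonic stem cells at D10, after both of a pair of exposures to ML-792, was set against expression at D1, before any exposure. The comparison used 4 of the 8 libraries of the series, 2 at D10 and 2 at D1, and all 36920 genes of the count table. ML-792 blocks the SUMO E1 enzyme, the heterodimer of Sae1 and Uba2 that activates SUMO. R1 is an established embryonic stem cell line, and every library came from it, grown in serum with LIF and with no genetic change named in the labels. The D10 cells had been given ML-792 for 48 h between D1 and D3 and for another 48 h between D8 and D10, at a dose labelled 2.5 mM. The D1 cells are labelled control. D3, at the end of the first exposure, and D8, labelled control and taken between the exposures, entered the fit and are used below for context. No library of untreated cells at D10 was analysed here, so the inhibitor, the repeat of the exposure and the days of culture between D1 and D10 changed together and cannot be told apart.

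SUMO is a small protein that is joined to lysines of other proteins through an E1, an E2 and E3 ligases, and removed by Senp proteases. Many of its targets are chromatin proteins, and in mouse embryonic stem cells sumoylation is known to help keep retroviral elements, germline genes and the genes of the 2-cell embryo silent. Embryonic stem cells in serum with LIF hold a naive state in which Nanog, Klf4, Tfcp2l1 and related factors act together, and a small part of such cultures passes through a 2-cell-like state marked by Zscan4 genes and driven by the transcription factor Dux, or drifts towards primitive endoderm.

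Reads in genes numbered 24281905 and 40835518 in the D10 libraries and 21040992 and 32610314 in the D1 libraries, and replicates correlated at 0.982 at D10 and 0.988 at D1 (Pearson's r across genes on log2 CPM). D1 replicate 2 carries D1 in its title but D0 in its time tag, and was kept at D1. Whether replicates were separate cultures is not in the labels, and p-values then measure only a spread between libraries that may be technical. GC content of genes moved with the libraries: the rank correlation of GC content with a gene's departure from its mean over the 8 libraries was -0.398 and 0.067 in the D10 replicates and -0.161 and 0.117 in the D1 replicates. Its part in the results was not tested beyond the fit with a GC correction. Levels are given in CPM, read counts scaled for library size with TMM factors, and are compared between libraries of the same gene only.

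The label of embryonic stem cells was checked on 8 marker genes. Sox2 stood at 389 and 363 CPM at D10 and 300 and 351 CPM at D1, Sall4 at 275 and 253 CPM at D10 and 260 and 257 CPM at D1, and Pou5f1 at 796 and 758 CPM at D10 and 1079.9 and 1369.5 CPM at D1. Lin28a, Utf1, Zfp42, Nanog and Dppa5a were also present in all 4 libraries. Presence is not an unchanged level, since Pou5f1, Nanog, Dppa5a and Zfp42 were called lower at D10. Nanog averaged 270 CPM at D10 and 764 CPM at D1, and Dppa5a 442 CPM at D10 and 1290 CPM at D1. Without D1 replicate 1 the call of Zfp42 was lost, at a log2 fold change of -0.96. Of 15 fibroblast markers, the 10 tested summed to 209 and 231 CPM at D10 and 176 and 221 CPM at D1. In these sums Vim, which is not specific to fibroblasts, gave 192 and 197 CPM at D10 and 160 and 202 CPM at D1. The median log2 fold change of the 10 was 1.35, and 20.0% of them were called, against 12.8% over all genes. Fbln2 and Twist2 were called higher, 2 calls that were both lost without any 1 of the D10 and D1 libraries. The 5 markers not tested, among them the defining matrix genes Dcn and Col3a1, had no read at D1 and 0 to 5 reads in a D10 library. The part of such cells in the results was not tested. Ptprc, the leukocyte surface marker CD45, had 6 and 5 reads at D10 and 1 and 0 reads at D1. Blood and endothelial markers, 10 tested of 13, summed to 118 and 164 CPM at D10 and 93.3 and 111 CPM at D1. Flt1 and Cdh5, 20.0% of those tested, were called higher, neither of them without D1 replicate 1 or D10 replicate 2. Flt1 also lost its call without D1 replicate 2, without either D3 library and with a stricter filter on low counts. In bulk RNA, fewer cells of a type and less RNA per cell cannot be told apart, and this holds for every result below.

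Of 19173 genes tested, 1541 were higher at D10 than at D1 (8.04%) and 921 were lower (4.8%), 12.8% in all, at an adjusted p under 0.05 by edgeR's quasi-likelihood test. Genes called higher had a median level at D1 of 1.38 CPM, against 20.9 CPM for the genes that fell and 8.72 CPM for all genes tested. The D1 level is part of the fold change that sorts these genes, so this contrast was partly set by the calling itself. The filter also keeps genes without reads at D1 where another group has reads. 677 of the higher genes averaged under 1 CPM at D1, and 39 had no read in either D1 library. The median log2 fold change was 1.90 among higher genes, -1.18 among lower genes and 0.01 over all genes tested. At 4-fold or more, 726 genes were higher and 177 were lower. Fits that leave out a D10 or D1 library, used below, keep 1 library in that group and fewer residual degrees of freedom. A call can then be lost although the fold change is kept, so a lost call alone does not show dependence on that library. With 4 residual degrees of freedom the count rested on each library: leaving out D1 replicate 1 gave 570 genes and D1 replicate 2 gave 581, leaving out D10 replicate 1 gave 1258 and D10 replicate 2 gave 1171, and the share of calls that were higher was 47.0% in the first of these fits against 62.6% with all libraries.

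**Figure D1:**
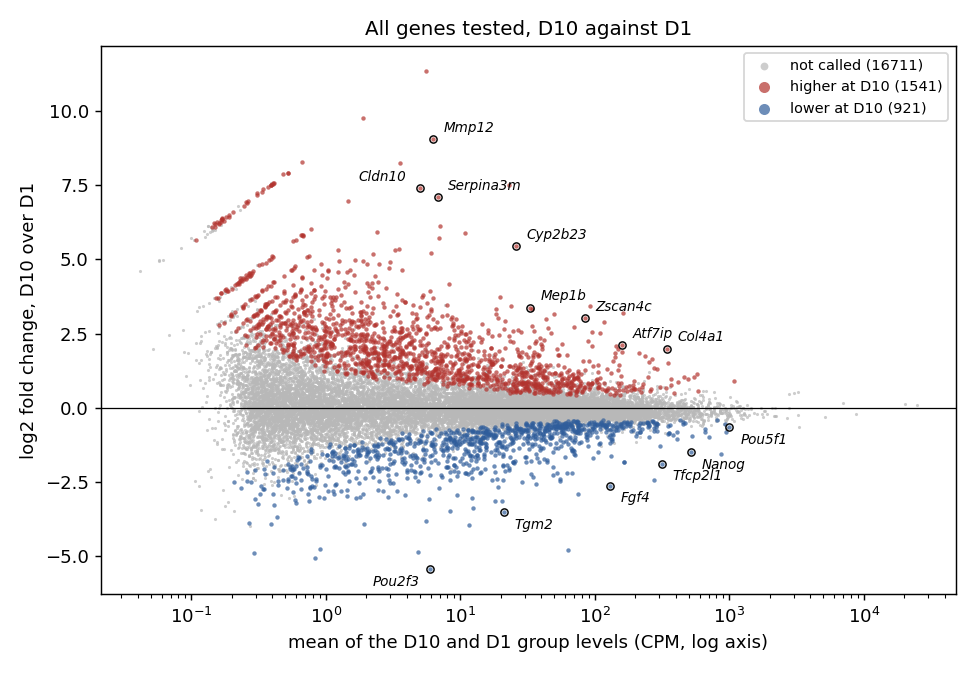
Log2 fold change of D10 over D1 for each of 19173 genes tested (vertical axis) against the mean of the D10 and D1 group levels in CPM (log axis); red points are the 1541 genes called higher at D10, blue points the 921 called lower, grey points those not called. The higher genes spread far above the axis at low levels, with Mmp12 at 9.05, whereas the largest falls, such as Pou2f3 at -5.44, lie below it.

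Promoters are shown for 4 genes that all changed by 4-fold or more. They are Mmp12, with the largest rise, and Zscan4c, a marker of the 2-cell-like state. The others are Fgf4, among the smallest p-values of the falls, and Atf7ip, a silencing factor that rose. The promoters are examples of windows poor and rich in CpG. Each is the RefSeq window from 250 bases before to 50 bases after the annotated start, 300 bases on the plus strand of GRCm38.p6, at chr9:7344147-7344446 for Mmp12, chr7:11005495-11005794 for Zscan4c, chr7:144861136-144861435 for Fgf4 and chr6:136518601-136518900 for Atf7ip. Capitals mark CpG dinucleotides, of which the windows hold 0, 4, 28 and 29 in that order.
Mmp12: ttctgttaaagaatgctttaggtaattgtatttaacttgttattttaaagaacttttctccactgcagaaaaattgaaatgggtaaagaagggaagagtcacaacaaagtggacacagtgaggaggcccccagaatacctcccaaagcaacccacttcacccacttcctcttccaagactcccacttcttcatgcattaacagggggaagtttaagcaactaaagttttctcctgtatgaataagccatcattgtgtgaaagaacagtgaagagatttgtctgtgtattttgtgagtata
Zscan4c: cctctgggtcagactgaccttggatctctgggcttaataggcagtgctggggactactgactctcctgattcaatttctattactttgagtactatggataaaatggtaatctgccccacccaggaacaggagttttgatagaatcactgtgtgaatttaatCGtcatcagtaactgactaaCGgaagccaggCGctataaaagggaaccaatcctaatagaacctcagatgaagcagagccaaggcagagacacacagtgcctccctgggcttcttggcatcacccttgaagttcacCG
Fgf4: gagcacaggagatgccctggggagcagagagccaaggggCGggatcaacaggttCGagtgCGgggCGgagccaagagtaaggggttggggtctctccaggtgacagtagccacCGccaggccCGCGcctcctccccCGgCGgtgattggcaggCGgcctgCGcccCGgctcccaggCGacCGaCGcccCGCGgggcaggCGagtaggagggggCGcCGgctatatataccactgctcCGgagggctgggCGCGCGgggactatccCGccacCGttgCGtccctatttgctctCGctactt
Atf7ip: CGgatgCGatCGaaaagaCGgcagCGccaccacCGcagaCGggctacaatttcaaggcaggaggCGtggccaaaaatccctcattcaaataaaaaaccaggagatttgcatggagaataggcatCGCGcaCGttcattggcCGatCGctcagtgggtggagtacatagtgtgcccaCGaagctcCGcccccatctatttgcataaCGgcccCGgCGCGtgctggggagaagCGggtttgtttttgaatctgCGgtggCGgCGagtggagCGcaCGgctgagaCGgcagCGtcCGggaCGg

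The largest rises were in genes with low levels at D1, which a ranking by fold change itself favours. Mmp12, a metalloprotease best known from macrophages, had 18.4 and 6.37 CPM at D10 and 0.0478 and 0 CPM at D1. The D10 libraries lay far above both D1 libraries but differed from each other, and the rise of 9.05 ± 1.32 on the log2 scale (SE, adjusted p = 0.00485) missed the threshold without D1 replicate 2 (adjusted p = 0.0576). Slco2b1, an organic anion transporter, had 2.07 and 12.0 CPM at D10 and 0.0478 and 0 CPM at D1. Its D10 libraries differed widely from each other, and the rise of 8.25 ± 1.22 on the log2 scale (SE, adjusted p = 0.00505) also missed the threshold without D1 replicate 2 (adjusted p = 0.0576). Cldn10, a claudin of tight junctions, had 8.51 and 11.5 CPM at D10 and 0 and 0.0932 CPM at D1. Serpina3m, a secreted serine protease inhibitor of a multi-copy cluster, had 12.6 and 14.3 CPM at D10 and 0.0478 and 0.124 CPM at D1. For Cldn10 and Serpina3m every D10 library was higher than every D1 library, and the log2 fold changes were 7.38 ± 0.72 and 7.11 ± 0.57 (SE). Cyp2b23, a cytochrome P450 that was well detected, had 62.5 and 38.9 CPM at D10 and 0.909 and 1.37 CPM at D1, a difference of 5.44 ± 0.43 on the log2 scale (SE; adjusted p = 0.000824). Grin2a, a subunit of the NMDA glutamate receptor, had a log2 fold change of 6.11, Cthrc1, a secreted collagen-associated protein, of 5.90, Creb5, a transcription factor of the CREB family, of 5.70, and Pcdh8, a protocadherin, of 5.34. Thbs2, a matrix glycoprotein, had 5.47 and 6.08 CPM at D10 and 0.191 and 0.186 CPM at D1, the most even pair of groups among these low genes. These genes other than Mmp12 and Slco2b1 were called in every alternative fit that tested them.

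Mep1b, a membrane metalloprotease of the meprin family, had the smallest adjusted p of all genes (8.62e-05). It stood at 58.7 and 61.5 CPM at D10 and 5.45 and 6.09 CPM at D1, a log2 fold change of 3.38 ± 0.15 (SE). Efr3b, a membrane anchor for a lipid kinase, stood at 74.5 and 80.5 CPM at D10 and 8.03 and 11.5 CPM at D1. Within both of these genes the replicates lay close together and the groups far apart. Vav3, a guanine nucleotide exchange factor of the Vav family, rose by 3.39 ± 0.26 on the log2 scale (SE).

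The deepest falls were in genes with clear levels at D1, which a fall of that size requires. Pou2f3, a POU-domain transcription factor (chr9:43123939-43210369, mm10), had 0.203 and 0.309 CPM at D10 and 8.13 and 15.1 CPM at D1, and Nkx6-3, a homeodomain factor, had 0.405 and 0.261 CPM at D10 and 8.03 and 10.8 CPM at D1. The groups of both genes were well separated, with fold changes of -5.44 ± 0.49 for Pou2f3 (SE; adjusted p = 0.000998) and -4.85 ± 0.41 for Nkx6-3 (SE; adjusted p = 0.000863) on the log2 scale. Tgm2, a transglutaminase that cross-links proteins, fell to 2.35 and 4.33 CPM at D10, against 26 and 51.7 CPM at D1. Sgk1, a kinase induced by serum and glucocorticoid, fell to 96.2 and 75.7 CPM at D10, against 474 and 452 CPM at D1, and Kifc3, a kinesin motor, to 20.7 and 19.5 CPM at D10, against 72.2 and 63.6 CPM at D1. Log2 fold changes were -3.94 for Krt17, an intermediate filament keratin, -3.46 for Slc52a3, a riboflavin carrier, and -3.14 for Lrrc34. All 8 were called in every alternative fit.

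The levels between these days differed from gene to gene. Sgk1 averaged 463 CPM at D1, 108 CPM at D3, 443 CPM at D8 and 86.0 CPM at D10, and Mep1b 5.77 CPM at D1, 96.4 CPM at D3, 4.38 CPM at D8 and 60.1 CPM at D10. Both genes were near their D1 level at D8, and at D3 lay on the same side of D1 as at D10. Gata6, an endoderm factor chosen here after its values were seen, averaged 2.68 CPM at D1, 6.86 CPM at D3, 13.1 CPM at D8 and 18 CPM at D10, so that the D8 control libraries already stood above those at D1.

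**Figure D2:**
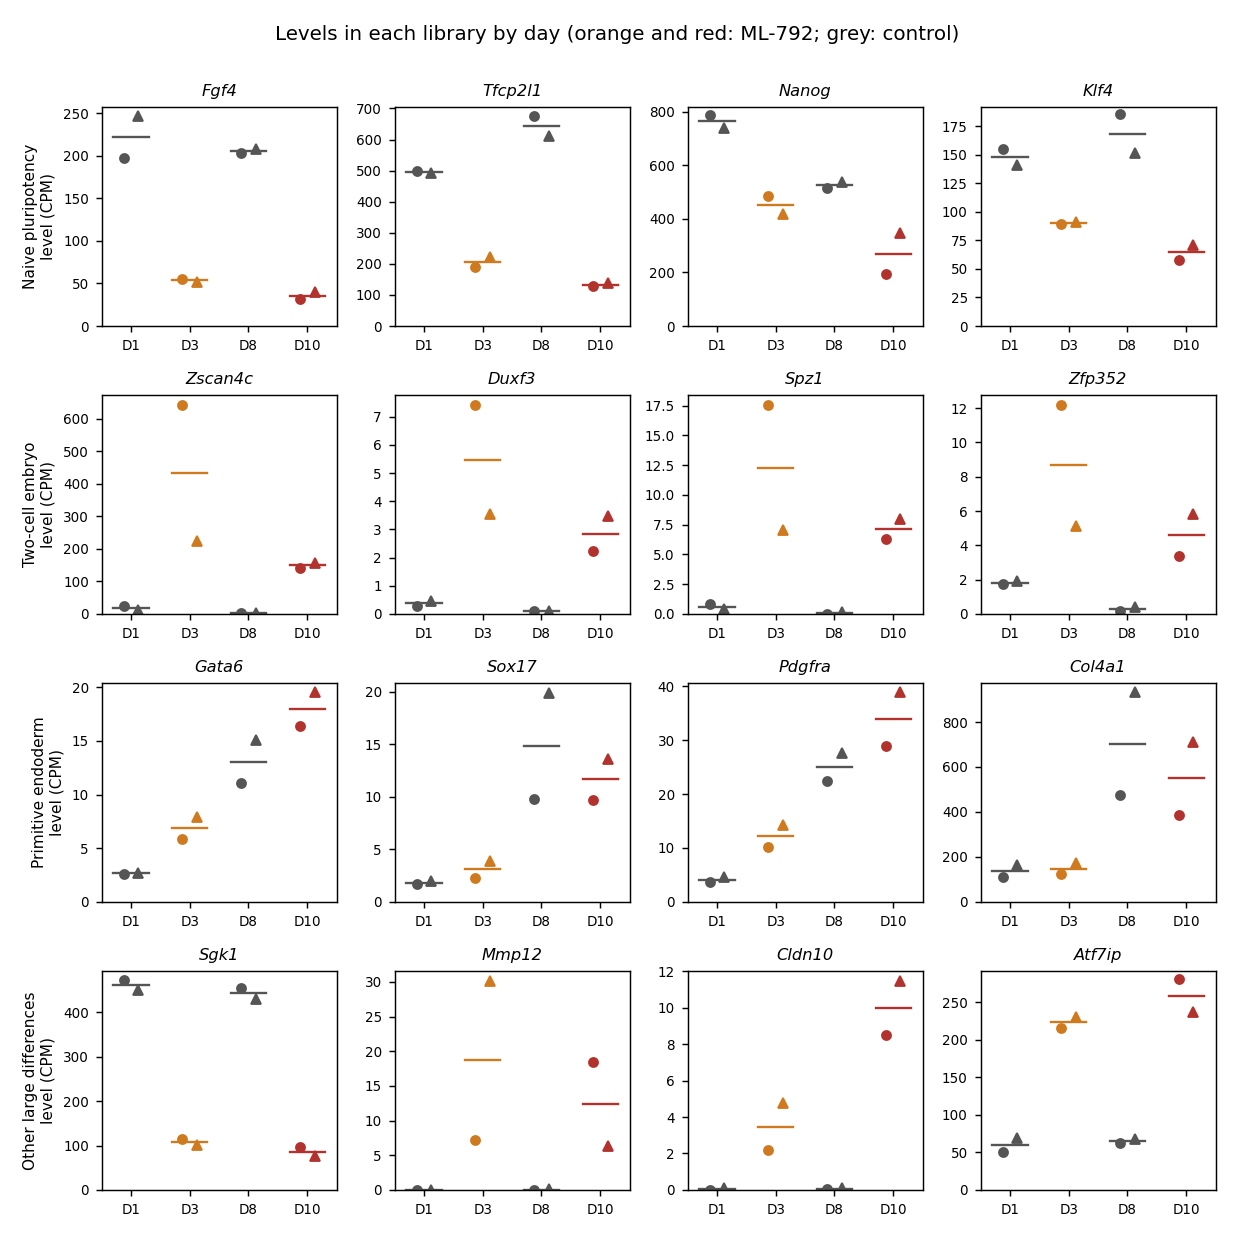
Level in CPM (vertical axes, starting at 0) of 16 genes in each of the 8 libraries by day, grey for control days D1 and D8, orange for D3 and red for D10 after ML-792, circles for replicate 1 and triangles for replicate 2, with a bar at the group mean. Fgf4 and Sgk1 are low at D3 and D10 and high at D1 and D8, whereas Gata6, Sox17 and Pdgfra are higher at D8 than at D1 and stay high at D10.

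Most measured genes of the naive state fell, with 65.4% called against 12.8% over all genes. Of 26 tested, 16 were lower at D10 and 1 was higher, with a median log2 fold change of -0.91 beside 0.01 over all genes; the lower count was 10 without D1 replicate 1, and 11 to 13 without any other library of the 2 groups. Fgf4, the fibroblast growth factor that embryonic stem cells secrete (chr7:144847367-144865243, mm10), had 31.3 and 40.1 CPM at D10 and 198 and 246 CPM at D1, log2 fold change -2.64 with an SE of 0.17 (adjusted p = 0.000478). Tfcp2l1, a transcription factor of the naive network, had 128 and 139 CPM at D10 and 497 and 494 CPM at D1. For both genes the groups were separated by far more than the replicates. Nanog had 194 and 347 CPM at D10 and 788 and 740 CPM at D1, a difference of -1.50 ± 0.24 on the log2 scale (SE; adjusted p = 0.00694), and was the least even of these at D10. Klf4 had 58.0 and 71.0 CPM at D10 and 155 and 141 CPM at D1. Prdm14, which with Nanog and Klf4 helps keep the naive state, had a log2 fold change of -2.12 and Tbx3 of -1.35, both chosen after their values were seen and called in every alternative. Tcl1, an Akt cofactor, and Ooep, an oocyte protein also made in embryonic stem cells, had log2 fold changes of -2.26 and -2.18. Dppa3, which shields maternal DNA methylation, was the 1 gene of the list that was higher, at 3.16 and 11.9 CPM at D10 and 1.05 and 1.21 CPM at D1. It rested on D10 replicate 2, without which its adjusted p was 0.236, and it also lost the call without either D1 library and without either D3 library.

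General pluripotency genes were called at a share near that of all genes, 13.0% against 12.8%. Of 23 tested, 3 were lower and none was higher, and the median was -0.06; 1 was lower without D1 replicate 1, D1 replicate 2 or D10 replicate 2, and 2 without D10 replicate 1. Pou5f1, which encodes Oct4, fell by 0.66 ± 0.15 on the log2 scale (SE, adjusted p = 0.0267), a call lost without any 1 of the D10 and D1 libraries (adjusted p from 0.0502 to 0.195). Sox2, its partner on DNA, differed by 0.21 ± 0.16 on the log2 scale and was not called (SE, adjusted p = 0.463). Dppa5a, an RNA-binding protein of early embryos, fell by 1.54 on the log2 scale, a call held in all alternatives. Sall1, a zinc finger factor, fell by 0.97 on the log2 scale and lost its call without D1 replicate 1, D1 replicate 2 or D10 replicate 2.

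Many genes of the 2-cell embryo were higher at D10, but fewer were called with a D1 library left out. Of 28 tested, 16 were higher and none was lower, 57.1% called against 12.8% over all genes, with a median log2 fold change of 2.26. Without D1 replicate 2 none of them was called, and 6 were without D1 replicate 1. Leaving out D10 replicate 2 gave 8 calls and leaving out D10 replicate 1 gave 13. The summed level of the list was 829 and 881 CPM at D10 and 170 and 103 CPM at D1, so that neither D10 library came near the D1 range. Zscan4c, a SCAN-domain zinc finger protein that marks the state (chr7:11005745-11010547, mm10), had 143 and 156 CPM at D10 and 24.4 and 12.7 CPM at D1. That is 3.01 ± 0.49 in log2 fold change (± SE, adjusted p = 0.00729). Without D1 replicate 2 it was 2.61 and the call was lost. Duxf3, a gene copy that encodes Dux, had 2.23 and 3.47 CPM at D10 and 0.287 and 0.466 CPM at D1, and Spz1, a bHLH-zip factor, 6.32 and 7.96 CPM at D10 and 0.813 and 0.435 CPM at D1. The groups of both genes were apart, yet Duxf3 lost its call without either D1 library and Spz1 without D1 replicate 2. The log2 fold change of Duxf3 was then 2.57 without D1 replicate 1 and 3.30 without D1 replicate 2, and that of Spz1 was 3.13. Zfp352, a zinc finger gene of the same stage, had 3.40 and 5.80 CPM at D10 and 1.72 and 1.93 CPM at D1 and was not called (adjusted p = 0.104), although it was by DESeq2 (adjusted p = 0.041) and with no filter on low counts (adjusted p = 0.0025). Zscan4, Dux, Usp17l, Tcstv and Tdpoz genes lie in multi-copy clusters, and the handling of reads that match several places is not given in the sources used here, so values of single copies are uncertain. Zscan4c averaged 18.6 CPM at D1, 432 CPM at D3, 2.72 CPM at D8 and 149 CPM at D10.

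**Figure D3:**
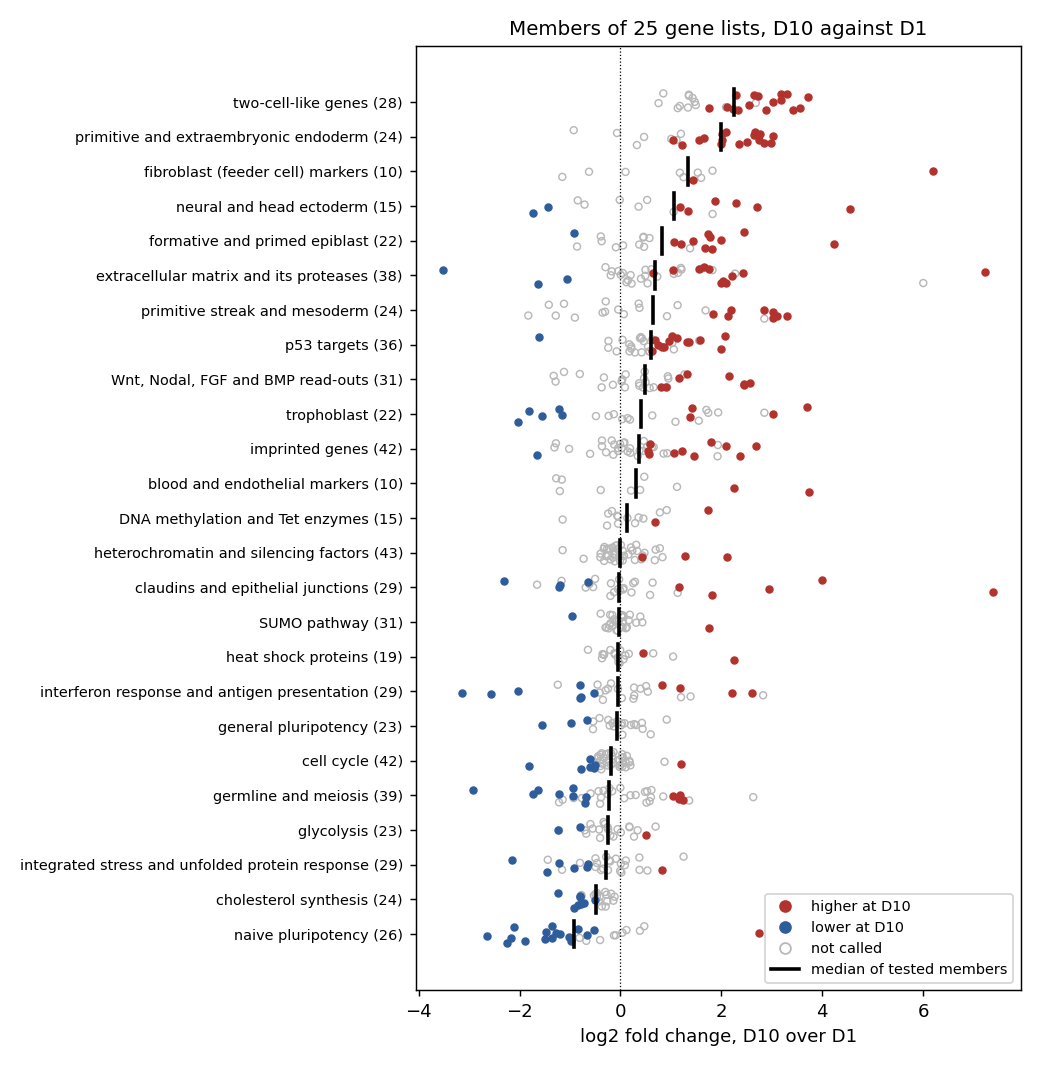
Log2 fold change of D10 over D1 (horizontal axis) for each tested member of 25 gene lists (rows, number tested in brackets), filled red where called higher at D10, filled blue where called lower, open where not called; the black bar is the median of the tested members. The 2-cell-like list has the highest median, 2.26, followed by primitive and extraembryonic endoderm at 2.00, and naive pluripotency the lowest, -0.91.

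Genes of primitive and extraembryonic endoderm, the lineage that goes on to line the yolk sac, were mostly higher. The share called was 70.8%, against 12.8% over all genes. Of 24 tested, 17 were higher and none was lower, with a median of 2.00 on the log2 scale, and 5 were called without D1 replicate 1 and 9 without D1 replicate 2, against 12 when D10 replicate 2 was left out and 17 when D10 replicate 1 was. Pdgfra, a receptor tyrosine kinase of this lineage, had 29.0 and 38.9 CPM at D10 and 3.63 and 4.63 CPM at D1, log2 fold change 3.03 with an SE of 0.26 (adjusted p = 0.000899). Fgfr2, a receptor for FGF4, had 14.3 and 18.3 CPM at D10 and 2.30 and 1.86 CPM at D1. Gata6, which specifies the lineage, had 16.4 and 19.6 CPM at D10 and 2.63 and 2.73 CPM at D1. Every D10 library lay several-fold above every D1 library for these genes, and all 3 were called in every alternative. Sox17, a SOX factor of endoderm, had 9.69 and 13.6 CPM at D10 and 1.67 and 1.99 CPM at D1, with adjusted p = 0.00612, and 0.0602 and 0.0533 without either D1 library. Basement membrane genes, chosen after their values were seen, followed the same direction: Col4a1, a type IV collagen chain, had 386 and 712 CPM at D10 and 112 and 163 CPM at D1, and Lama1, a laminin chain, 314 and 487 CPM at D10 and 106 and 148 CPM at D1. Within both groups replicate 2 was the higher, and Col4a1 lost its call without either D1 library or D10 replicate 2, and Lama1 without D1 replicate 1. The list's median was 0.42 for D3 over D1, 2.19 for D8 over D1 and -0.35 for D10 over D8; these comparisons share libraries with D10 against D1 and with each other.

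Matrix and junction genes changed in both directions, with 36.8% of matrix and 31.0% of junction genes called, against 12.8% over all genes. Of 38 genes of extracellular matrix and its proteases, 11 were higher, of which 5, the basement membrane chains Col4a1, Col4a2, Lama1, Lamb1 and Lamc1, are also in the endoderm list, and 3 were lower; the higher count was 2 without D1 replicate 1, and 5 without D1 replicate 2 or without D10 replicate 2. Mmp9, a gelatinase, had 6.0 and 7.22 CPM at D10 and 1.05 and 1.37 CPM at D1, and was called in every alternative. Lox, which cross-links collagen, had no read in either D1 library and 10 and 35 reads at D10, which makes it at least 11.9-fold higher against a floor of 3 reads over the D1 group, though the call was lost without either D1 library. Of 29 claudin and junction genes, 5 were higher and 4 were lower, with 1 and 1 called without D1 replicate 1, 2 and 1 without D1 replicate 2, 4 and 1 without D10 replicate 1 and 3 and 3 without D10 replicate 2. Cldn10 gave the largest rise of the list. Cdh1, E-cadherin, chosen after its values were seen, fell by 0.64 on the log2 scale, and that call was lost without any 1 of the 4 libraries.

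Formative and primed epiblast genes, which rise as naive cells move towards implantation stages, were higher more often than lower. Of 22 tested, 10 were higher and 1 was lower, with a median of 0.82, and the higher count was 5 without D1 replicate 1 and 6 without D1 replicate 2. Dnmt3a, a de novo DNA methyltransferase, had 395 and 326 CPM at D10 and 110 and 106 CPM at D1, a difference of 1.74 ± 0.14 on the log2 scale (SE; adjusted p = 0.000824). Zic2, a zinc finger factor of the primed state, had 29.5 and 24.9 CPM at D10 and 5.45 and 8.04 CPM at D1. Both genes separated the groups by far more than the replicates. With Uhrf2, a reader of methylated DNA, Dnmt3a was 1 of 2 genes higher among 15 of DNA methylation and Tet enzymes. That is 13.3% called, near the 12.8% over all genes. The call of Uhrf2 was lost without D10 replicate 1 or either D1 library. Wnt8a, a Wnt ligand, rose by 4.24 and Lef1, a transcription factor of the Wnt pathway, by 2.45 on the log2 scale. Otx2, a central factor of the formative state, had 13.5 and 9.27 CPM at D10 and 8.37 and 13.4 CPM at D1, and its groups overlapped (adjusted p = 0.951).

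Some regional and lineage genes of the gastrula rose, most of them from low levels. Beside 12.8% over all genes, 53.3% of neural and head, 33.3% of streak and mesoderm and 40.9% of trophoblast genes were called. These lists share members with others. Pdgfra, given above with the endoderm genes, is also in the streak list, and is the streak call left without either D1 library. Cdx2 is in both the streak and the trophoblast list. Of 15 neural and head genes tested, 6 were higher and 2 were lower, with 2 higher without either D1 library and 3 without D10 replicate 2. En1, a homeobox gene of the midbrain border, had 3.12 and 1.57 CPM at D10 and 0.0956 and 0.0932 CPM at D1, and its relative En2 had 15.5 and 19.6 CPM at D10 and 3.49 and 3.63 CPM at D1. The groups of both genes did not overlap and both were called in every alternative. Of 24 primitive streak and mesoderm genes, 8 were higher and none was lower, but 1 was called without either D1 library, 2 without D10 replicate 2 and 5 without D10 replicate 1. T, which encodes Brachyury, had 1.86 and 2.26 CPM at D10 and 0.191 and 0.217 CPM at D1, with adjusted p = 0.00908, and 0.0732 and 0.0796 without either D1 library. Of 22 trophoblast genes, 4 were higher and 5 were lower; Cdx2, a trophectoderm and hindgut factor, rose by 3.02 on the log2 scale and lost its call without either D1 library or without D10 replicate 2, and Tead4, which acts upstream of Cdx2 and was chosen after its values were seen, fell by 1.56 in every alternative. No higher trophoblast gene was called without either D1 library or without D10 replicate 2, and the lower count was 3 without D1 replicate 1 and 2 without D1 replicate 2.

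Genes of a joint list for FGF, BMP, Nodal and Wnt signalling were higher where they were called. Of those tested, 25.8% were called, against 12.8% over all genes. The calls were not counted by pathway. Of 31 tested, 8 were higher and none was lower, with a median of 0.48, and the count was 3 without D1 replicate 1 and 5 without D1 replicate 2. Dusp4, a phosphatase induced by ERK signalling, had 55.5 and 64.5 CPM at D10 and 7.22 and 12.8 CPM at D1, which is 2.57 ± 0.35 in log2 fold change (± SE, adjusted p = 0.004). Spry2, a feedback inhibitor of receptor tyrosine kinases chosen after its values were seen, had 182 and 167 CPM at D10 and 69.0 and 71.1 CPM at D1. Both genes were called in every alternative. At the same time Fgf4, the ligand, was lower and Fgfr2, the receptor, higher, as given above.

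Targets of p53, the transcription factor of the DNA damage response, were higher more often than lower, with 38.9% called against 12.8% over all genes. Of 36 tested, 13 were higher and 1, Gdf15, was lower, with a median of 0.60; the higher count was 3 without D1 replicate 1, 6 without D1 replicate 2 or D10 replicate 1, and 7 without D10 replicate 2. Pmaip1, the pro-apoptotic protein Noxa, had 223 and 184 CPM at D10 and 54.9 and 81.4 CPM at D1, log2 fold change 1.57 with an SE of 0.20 (adjusted p = 0.00323). Mdm2, the ligase that limits p53, had 409 and 378 CPM at D10 and 133 and 176 CPM at D1, and Ccng1, cyclin G1, 817 and 766 CPM at D10 and 334 and 392 CPM at D1. The last 2 were chosen after their values were seen, and all 3 were called in every alternative. Cdkn1a, also chosen after its values were seen, was called higher but lost its call without any 1 of the D10 and D1 libraries. Its log2 fold change in those fits was 1.09 to 1.55. Gdf15, a stress cytokine, had 2.11 and 2.02 CPM at D10 and 6.31 and 6.27 CPM at D1, and lost its call without D1 replicate 2 (adjusted p = 0.0537).

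Cell cycle genes were called at 16.7%, against 12.8% over all genes. Of 42 tested, 6 were lower and 1 was higher, and 1 of the lower calls was left without D1 replicate 1, D1 replicate 2 or D10 replicate 1, 2 without D10 replicate 2, D3 replicate 1 or D3 replicate 2, against 11 without D8 replicate 1 and 14 without D8 replicate 2. Ccnd3, cyclin D3, had 63.3 and 81.3 CPM at D10 and 256 and 252 CPM at D1, a difference of -1.81 ± 0.18 on the log2 scale (SE; adjusted p = 0.00124) that held in every alternative. Rb1, the retinoblastoma protein that restrains entry into S phase, had 60.0 and 49.3 CPM at D10 and 20.5 and 27.1 CPM at D1, and its call was lost without D1 replicate 1 (adjusted p = 0.0568).

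Genes of cholesterol synthesis and of stress responses were lower more often than higher, with 33.3% and 24.1% called against 12.8% over all genes. Of 24 cholesterol synthesis genes, 8 were lower and none was higher, with a median of -0.48. That count was 1 without D1 replicate 1 or D10 replicate 1, 3 without D10 replicate 2, D3 replicate 1 or D3 replicate 2, and 0 without D1 replicate 2, and 13 without D8 replicate 2. Msmo1, a sterol methyl oxidase, had 94.7 and 84.1 CPM at D10 and 155 and 182 CPM at D1 (adjusted p = 0.00818, and 0.0705 without D1 replicate 2). Of 29 stress genes, those of the integrated stress response and of the response to unfolded proteins, 6 were lower and 1 was higher, and 1 lower call was left without D1 replicate 1, 4 without D1 replicate 2 and 3 without either D10 library. Psat1, an enzyme of serine synthesis, had 268 and 256 CPM at D10 and 501 and 496 CPM at D1, a difference of -0.93 ± 0.15 on the log2 scale (SE; adjusted p = 0.00636) that held in every alternative. Of 23 glycolysis genes, 1 was higher and 2 were lower, and of 19 heat shock genes, 2 were higher and none was lower. These are 13.0% of glycolysis genes and 10.5% of heat shock genes, near the 12.8% over all genes. The heat shock genes called were Hspa1a and Hsph1, and both lost their call without any 1 of the D10 and D1 libraries.

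Of 31 genes of the SUMO pathway tested, 1 was higher and 1 was lower, which is 6.45% called against 12.8% over all genes, and the median was -0.03. Uba2, a subunit of the enzyme that ML-792 binds, had 613 and 653 CPM at D10 and 707 and 751 CPM at D1, log2 fold change -0.20 with an SE of 0.13 (adjusted p = 0.342). Its partner Sae1 differed by 0.11 ± 0.15 on the log2 scale and was not called. An inhibitor of the enzyme need not change its RNA, so these levels check nothing about the exposure. Senp7, a protease that trims SUMO chains, rose by 1.76 on the log2 scale, a call lost without D1 replicate 1 (adjusted p = 0.0618). Senp3, a nucleolar protease, had 156 and 186 CPM at D10 and 352 and 318 CPM at D1 and was lower in every alternative. It averaged 209 CPM at D3 and 217 CPM in the D8 control libraries, and D10 against D8 was not called (edgeR, adjusted p = 0.12).

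Of 43 heterochromatin factors, 3 were higher and none was lower, which is 6.98% called against 12.8% over all genes, where 8.04% were higher. The higher count was 1 without either D1 library. Atf7ip, which partners and stabilises the H3K9 methyltransferase Setdb1 (chr6:136506167-136610862, mm10), had 280 and 236 CPM at D10 and 50.8 and 68.8 CPM at D1, a difference of 2.11 ± 0.17 on the log2 scale (SE; adjusted p = 0.000863) that held in every alternative. Setdb1 had 167 and 171 CPM at D10 and 188 and 186 CPM at D1 and was not called (adjusted p = 0.455). Zfp809, which recruits silencing to retroviral sequences, rose by 1.28 on the log2 scale but lost its call without D1 replicate 1 (adjusted p = 0.0503) or D1 replicate 2 (adjusted p = 0.0975).

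Germline and interferon genes changed in both directions, whereas the imprinted genes called were higher with 1 exception. Shares called were 33.3% of germline, 37.9% of interferon and 26.2% of imprinted genes, against 12.8% over all genes. Of 39 germline genes, 5 were higher and 8 were lower, with 0 and 3 called without D1 replicate 1, 1 and 2 without D1 replicate 2, 4 and 2 without D10 replicate 1 and 1 and 5 without D10 replicate 2. Prdm1, a repressor needed for germ cell fate, had 1.50 and 2.78 CPM at D10 and 12.4 and 20.8 CPM at D1, and Piwil4, a piRNA-binding protein, 2.19 and 2.57 CPM at D10 and 8.66 and 7.24 CPM at D1. Both fell in every alternative. Of 42 imprinted genes, 10 were higher and 1 was lower, with 2 higher without either D1 library, 5 without D10 replicate 1 or either D3 library and 4 without D10 replicate 2. Peg10, a retrotransposon-derived paternal gene, had 188 and 280 CPM at D10 and 51.6 and 58.7 CPM at D1 and was called in every alternative. Of 29 interferon and antigen presentation genes, 4 were higher and 7 were lower, with 0 and 3 called without D1 replicate 1, 2 and 2 without D1 replicate 2, and 3 lower without either D10 library. Ifitm1, a membrane protein, had 7.21 and 13.5 CPM at D10 and 43.2 and 81.0 CPM at D1, and Xaf1, an apoptosis factor, 2.39 and 5.75 CPM at D10 and 30.8 and 42.0 CPM at D1. Both were lower in every alternative, whereas the rise of Tap1, the peptide transporter, by 2.61 on the log2 scale was lost without D1 replicate 1 (adjusted p = 0.0602).

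D10 was also set directly against D3, the end of the first exposure. No gene was called by edgeR after the filter on low counts (0.0% of 19173), with 1073 genes at an unadjusted p under 0.05. That count depended on the processing, since 373 genes were called by edgeR with no filter and 70 by DESeq2. Pdgfra averaged 33.9 ± 6.99 CPM at D10 and 12.2 ± 2.95 CPM at D3 (SD, n = 2 each), which is 1.47 ± 0.24 in log2 fold change (± SE, adjusted p = 0.479), and Zscan4c 149 ± 9.43 CPM at D10 and 432 ± 295 CPM at D3, log2 fold change -1.53 with an SE of 0.46 (adjusted p = 0.71). Fgf4 averaged 35.7 CPM at D10 and 53.7 CPM at D3 and Nanog 270 CPM at D10 and 452 CPM at D3, neither of which was called. The medians of D10 over D3 were 1.31 for the endoderm list, -1.26 for the 2-cell-like list and -0.37 for the naive list.

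The CpG content of promoters was lower for the genes with large changes than over all genes, given here as a description with no test. RefSeq windows were matched for 11408 of 14693 coding genes tested. The median was 10 CpG in 300 bases for genes higher by 4-fold or more and 7 for genes lower by 4-fold or more, against 20 for all matched genes. Windows with at most 5 CpG made up 36.0% of the genes higher by 4-fold or more, 37.8% of those lower by 4-fold or more and 11.2% of all. All 16 matched windows of the 2-cell-like list had at most 5 CpG, as in the Zscan4c sequence above. Among genes with 0 to 5 CpG, 15.5% were higher and 8.47% were lower, against 7.26% and 4.57% of genes with 26 or more. Genes poor in CpG were also expressed less, with a median level of 1.78 CPM in the lowest class and 36.1 CPM in the highest, and the part of the level in this difference was not tested. The E-box letters CACGTG, searched on both strands, were in 9.94% of all windows and in 14 of 36 windows of the germline list. Among called genes they were in 9.75% of windows of higher and 8.61% of lower genes, near the share of all. The letters GATTNAATC, the inner part of the motif of mouse Dux, were in 0.184% of all windows and in 2 of 16 windows of the 2-cell-like list. They were in 4 of 985 windows of higher genes and 0 of 627 of lower genes. A match describes letters in these windows only.

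**Figure D4:**
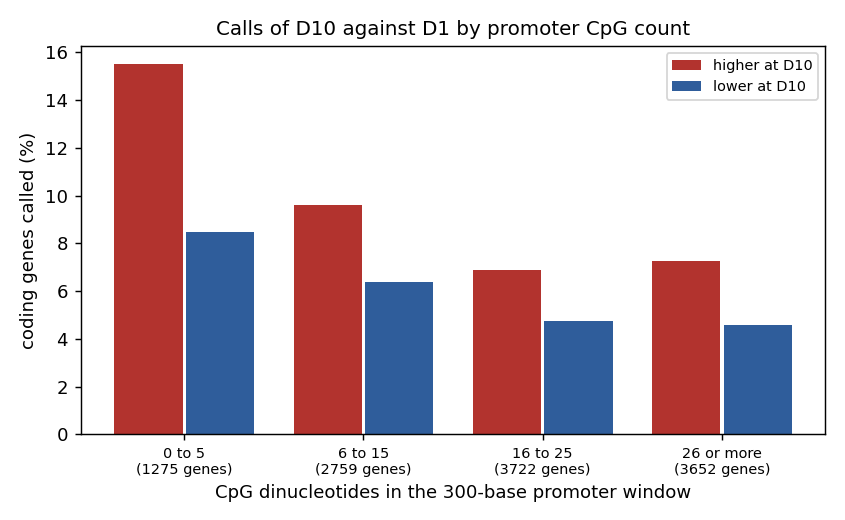
Share of coding genes called higher (red) and lower (blue) at D10 than at D1 (percent, axis from 0) by the number of CpG dinucleotides in the 300-base promoter window. Both shares are greatest, 15.5% and 8.47%, among the 1275 genes with 0 to 5 CpG.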

How the data were processed

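RNA of 8 libraries of R1 cells, 2 each at D1, D3, D8 and D10, was sequenced after removal of ribosomal RNA with a stranded total RNA kit, per the labels' protocols, although the molecule tag reads polyA RNA. The authors deposited raw counts of reads for each Ensembl gene, not normalized. The tools and build were bcl2fastq 2.17.1.14, STAR 2.5.0a, featureCounts and mm10 per the submitters' processing notes, with strand and multiple-match settings not given in the sources used here. Overlapping or multi-copy genes are therefore less certain.

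Symbols and mm10 coordinates came from GENCODE M21 by Ensembl identifier, with 36901 matched and 19 not. Of 36920 genes, 1438 had no read, and edgeR's filterByExpr left 19173. D10 against D1 was a contrast in edgeR 4.0.16 (R 4.3.3), from 1 quasi-likelihood fit to all 4 groups, with TMM scaling, 4 residual degrees of freedom, a biological coefficient of variation of 19.6%, 2-sided tests and Benjamini-Hochberg adjustment over all genes tested. Genes with an adjusted p under 0.05 were called. SEs are the log2 fold change divided by the square root of the F statistic. The procedure was tested on simulated data. Libraries held 21040992 to 40835518 reads in genes, and the floor of 3 reads covers counting error only.

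Named genes were the 10 largest rises, the 10 largest falls and the 10 smallest p-values among called genes of at least 1 CPM with groups that did not overlap, leaving out predicted names, up to 4 called members of each list or family, and 16 fixed genes. Of the genes these rules name, 4 are not reported here. Others are said to be chosen after their values were seen. Of 24 genes so chosen, not all of them named, 15 lost their call in some alternative and 0 changed direction. The comparison, lists and motifs were chosen with earlier results of these data known, so lists are described by counts and medians only. Alternatives were DESeq2 1.42.0, RLE scaling, other filters, the D10 and D1 libraries alone, a replicate block, a GC and length correction, and each library left out.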

Additional observations from a re-analysis of the deposited data

How the results depend on the processing

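The count of 2462 genes called at D10 against D1 was 2462 with RLE scaling, 2232 with a stricter filter, 2442 in a fit of the D10 and D1 libraries alone and 2835 with DESeq2. It moved to 3775 with no filter on low counts and 3668 with GC content and length corrected, and ranged from 570 to 3256 with single libraries left out. At 4-fold or more, the count of 903 ranged from 305 to 991 with single libraries left out. The 0 calls of D10 against D3 became 373 with no filter and 70 with DESeq2, and ranged from 0 to 1 with single libraries left out. Same-numbered replicates deviated together, at correlations of 0.101 to 0.498 between groups and 0.301 between D10 and D1, but 2 numbers a group with no stated meaning are not taken as a pairing. With a replicate block the counts were 4100 for D10 against D1 and 28 for D10 against D3, and with the block and GC and length corrected 5195 and 69. Calls were 62.6% higher (1541 higher, 921 lower), 52.0% with block and GC correction together (2701 higher, 2494 lower) and 47.0% to 74.5% with single libraries left out. Of 60 counts of list or family members called in 1 direction, 52 moved by over 1.5 times without D1 replicate 1 and 51 without D1 replicate 2, 30 with no filter, 27 with the block, 16 with GC and length corrected, 7 with DESeq2 and 0 with RLE scaling; p53 targets higher, 13 with all libraries, were 21 with the block or with GC and length corrected, and cholesterol genes lower, 8 with all libraries, were 13 and 14. The cause of these shifts was not tested. Of 151 named genes called, 53 were called in every alternative and 0 changed direction. Directions changed in 3 genes that were not called. Over all alternatives, log2 fold changes ran from -0.28 to 0.44 for Otx2, -0.0012 to 0.19 for Sae1 and -0.29 to 0.14 for Sumo2. The reversed values were -0.28 without D1 replicate 1 and -0.23 without D10 replicate 1 for Otx2. For Sae1 they were -0.0008 without D1 replicate 1 and -0.0012 without D10 replicate 2, and for Sumo2 0.14 without D1 replicate 1. Depth limits the low genes: 677 of the higher genes averaged under 1 CPM at D1.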

Other observations

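Gene families outside the lists differed in how many members were called. Of 85 cytosolic ribosomal protein genes tested, none was called in either direction, and of 36 genes of respiratory complex I, 1 was higher and none was lower, a call lost without any 1 of the D10 and D1 libraries, beside 8.04% higher and 4.8% lower over all genes. Serpin genes, inhibitors of serine proteases, had 6 of 19 higher and none lower, and cytochrome P450 genes, which oxidise lipids and foreign compounds, 6 of 30 higher and none lower. With single D10 or D1 libraries left out, 1 to 4 of the Serpin genes and 1 of the P450 genes were called. Of 272 solute carriers, 35 were higher and 25 were lower, and 5 to 18 were higher and 5 to 14 were lower with single D10 or D1 libraries left out. Slc2a9, a urate carrier, had no read at D1 and 10 and 64 reads at D10, at least 19.6-fold higher against a floor of 3 reads over the D1 group, a call lost without either D1 library.

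Pramef8, of a family of multi-copy genes of germ cells and early embryos, had 51.8 and 67.8 CPM at D10 and 17.8 and 16.7 CPM at D1 and was called in every alternative. Among MHC genes, 4 of 22 were higher and 2 were lower; H2-M5 had 7.42 and 10.1 CPM at D10 and 38.4 and 36.5 CPM at D1 and was lower in every alternative, while none of the 4 higher calls was left without either D1 library. Unprocessed pseudogenes, copies that kept their introns, had 19.5% of 118 members higher, against 8.04% over all genes, and reads shared with their parent genes make them uncertain.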
